A study of Mus musculus with 18 samples.

Results

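The comparison described here set nuclear RNA of mouse Neuro2A cells that was pulled down with biotinylated *miR-92b* against nuclear RNA pulled down with a biotinylated scrambled sequence (Scr). It took the 3 nuclear *miR-92b* samples and the 3 nuclear Scr samples, 6 of the 18 sequenced, and the loci that carry a gene symbol. Of 168136 loci, 52179 carried a symbol, 25286 of these had a read in at least 1 of the 6 samples, and 15579 had a mean of at least 10 normalized counts over all 18 samples and were tested. A normalized count is the number of reads on a locus divided by 1 factor per sample that brings the samples to a common scale.

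Neuro2A (N2A) is a neuroblastoma cell line, here with wild-type genotype. Cells were transfected with the biotinylated mimics at 25 nM, nuclei were isolated by fractionation, and the RNA bound to the mimic was precipitated through its biotin. Untransfected cells taken through the same steps formed the control group, and whole cell lysates formed 3 matching groups, with 3 samples in each of the 6 groups. Libraries were made from RNA selected on oligo-dT beads, so RNA without a poly(A) tail was selected against. Nothing in the labels says that the 3 samples of a group came from separate cultures. The p-values rest on the spread between samples within groups, estimated over all 6 groups together, and this spread may be technical. The study uses *miR-92b* as its name for the 3p arm, and neither the sequence of the mimic nor that of the scrambled control is given in the sources used here.

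A microRNA (miRNA) is a short RNA loaded into an Argonaute protein, which it guides to transcripts that pair with its seed, the bases near its 5′ end. In the cytoplasm such pairing recruits TNRC6 proteins and the CCR4-NOT deadenylase, which represses translation and shortens the poly(A) tail. Argonaute proteins and miRNAs are also found in the nucleus, where long noncoding RNAs and unspliced transcripts are abundant. A pulldown with a biotinylated mimic enriches the RNA it holds, so the comparison asked which nuclear transcripts had a higher level than in the Scr pulldown.

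The miRNAs that share a seed with *miR-92b-3p* are shown because they would recognise the same sites. Mature sequences are from RefSeq (GRCm38), 5′ to 3′, with the seed in capitals. The mouse hairpin gene Mir92b lies on the minus strand of chromosome 3, and its mature 3p arm spans chr3:89227126-89227147. Of the 22 bases of *miR-92b-3p*, *miR-92a-3p* shares 19 of 21 compared and *miR-25-3p* shares 16 of 22.
mmu-miR-92b-3p: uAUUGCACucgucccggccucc
mmu-miR-92a-3p: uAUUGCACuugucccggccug
mmu-miR-25-3p: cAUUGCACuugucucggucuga
mmu-miR-32-5p: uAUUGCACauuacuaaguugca
mmu-miR-363-3p: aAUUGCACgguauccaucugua
mmu-miR-367-3p: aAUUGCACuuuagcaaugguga
The other arm of the hairpin, *miR-92b-5p*, has a different seed and would recognise other sites.
mmu-miR-92b-5p: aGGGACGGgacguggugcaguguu

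The complete match to the *miR-92b-3p* seed in a transcript, the 8mer, reads GTGCAATA. The 3′ UTR (the part of a transcript after its stop codon) held such a match in 2.27% of 21020 mouse genes, and an 8mer or a 7-base match in 12.7%. In a list of 30 genes drawn up as targets of the miR-92 family, 23 held an 8mer. A few sites are printed with the bases around them, since they are the sequences through which these transcripts could be held. The first lies at chr2:128162435-128162462 (plus strand) in Bcl2l11, which encodes the pro-apoptotic protein BIM. Further sites lie at chr3:84979157-84979184 (plus strand) in Fbxw7, a ubiquitin ligase subunit, and at chr5:43288877-43288904 (plus strand) in Cpeb2, a regulator of poly(A) tails. Fnip1, a partner of folliculin, held 2 sites, the first at chr11:54517961-54517988 (plus strand). Coordinates are of GRCm38 with GENCODE M21 gene models, each site is in a 3′ UTR, and the capitals mark the 8mer.
Bcl2l11: ttgccactgtacctGTGCAATActgctg
Fbxw7: ttcttataacttaaGTGCAATAaaatgt
Cpeb2: ttctgtgttgtgatGTGCAATActgttt
Fnip1: tttgaaaacatgaaGTGCAATAaacata

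The nuclear label was checked against transcripts of known location. Malat1, a nuclear long noncoding RNA, had a mean of 91674 normalized counts over the 9 nuclear samples and 44593 over the 9 whole cell samples. Gapdh, a glycolytic enzyme whose mRNA is cytoplasmic, had means of 1007 and 5477, and Eef2, a translation elongation factor, had means of 2620 and 19471. Of the markers of sympathetic neuroblastoma, Hand2 had 671 to 1259 normalized counts in the 6 samples and Prph, which encodes peripherin, had 2659 to 3669. Of 14 markers of glia, fibroblasts, blood, endothelium, liver, epithelium and other neurons, 4 were tested. Their sum was 130 to 216 with *miR-92b* against 138 to 218 with Scr, and Ptprc, Gad1 and Krt5 were at 0. The locus of Mir92b itself was at 0 in all samples. These libraries were selected for poly(A) tails, which mature miRNAs lack. Miat (Gomafu) had at most 3.86 normalized counts and was not tested.

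Reads on loci with a symbol numbered 4254890, 16931731 and 4487495 in the *miR-92b* samples and 3754690, 5161739 and 4687351 in the Scr samples. Thinned to 3752991 reads each, the *miR-92b* samples held 20084, 20318 and 20720 loci with a read, and the Scr samples 19785, 14729 and 14958. Scr samples 2 and 3 stood apart from Scr sample 1 and from every *miR-92b* sample. Loci with at least 20 normalized counts in the other 8 nuclear libraries and 0 in a single library numbered 239 in Scr sample 2, 217 in Scr sample 3 and 114 in control sample 3, and there were 0 in each of the other 6 libraries. Of 11509 loci with at least 20 normalized counts in the 3 *miR-92b* samples, Scr sample 1 and control samples 1 and 2, 447 (3.88%) were at 0 in Scr sample 2 and 396 (3.44%) in Scr sample 3. The 81 at 0 in both were 18.1% of the former and 20.5% of the latter. In these bulk samples, fewer cells and less RNA per cell cannot be told apart, and the cause of the zeros was not tested.

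**Figure D1:**
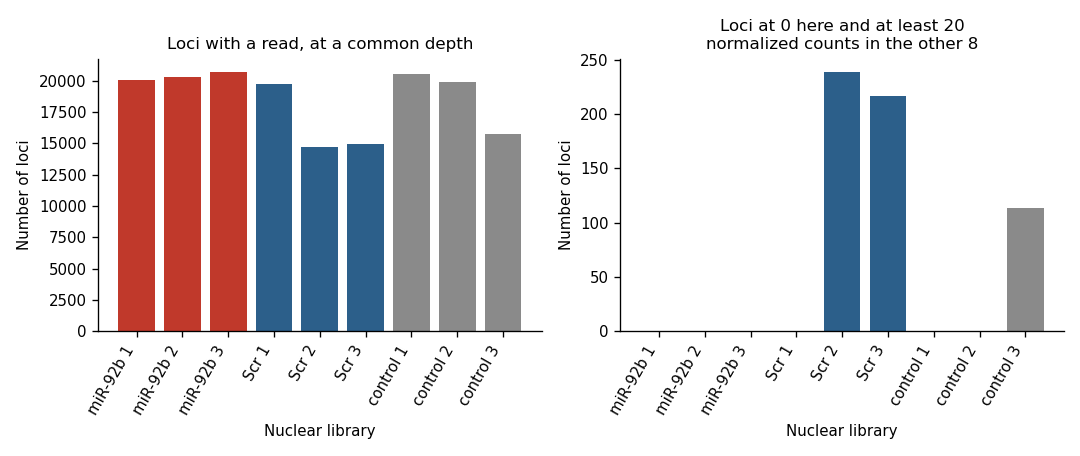
Number of loci with at least 1 read after thinning each nuclear library to the same depth (left) and number of loci at 0 in that library alone with at least 20 normalized counts in the other 8 (right), 1 bar per library, coloured by group. Scr samples 2 and 3 and control sample 3 held fewer loci (14729, 14958 and 15732) than the other 6 libraries.

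No locus passed the test between the nuclear *miR-92b* and Scr pulldowns. limma called 0 of 15579 loci (0%), with a smallest adjusted p of 0.999964. At an unadjusted p under 0.05, limma gave 582 loci higher (3.74% of those tested) and 105 lower (0.674%) with *miR-92b*. edgeR called 0 loci and gave 275 (1.77%) at an unadjusted p under 0.05, 150 higher and 125 lower. DESeq2 called 1, Lars2, of the 15561 to which it gave an adjusted p (0.00643%), and gave 436 (2.8%) at an unadjusted p under 0.05. Under quantile normalization of the same values, limma gave 374 loci higher and 297 lower. The share of higher loci among those at an unadjusted p under 0.05 was 84.7% by limma with the deposited scale. It was 87.4% after rescaling the samples to the same median, 55.7% after quantile normalization and 54.5% with edgeR. With FPKM values, which are also divided by transcript length, it was 60.5%. The 3 *miR-92b* values all exceeded the 3 Scr values at 978 loci (6.28%), and all lay below them at 593 (3.81%).

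The fold changes followed abundance. With fold changes taken as *miR-92b* over Scr on log2(normalized count + 1), the median was 1.06 over 2122 loci with a mean of 10 to 20 normalized counts, 0.74 over 2886 loci from 20 to 50, 0.23 over 2292 loci from 50 to 100 and 0.09 over 2432 loci from 100 to 200. Over the 5847 loci with a mean of at least 200 it was -0.0026. In the lowest range 77.0% of loci were at 0 in Scr sample 2 or 3, and 7.68% were at 0 in any *miR-92b* sample. Of the 582 loci higher at an unadjusted p under 0.05, 408 were at 0 in at least 1 Scr sample, while 6 of the 105 lower ones were at 0 in a *miR-92b* sample. The median over all loci was 0.11 with the deposited scale, 0.14 after rescaling the samples to the same median, 0.03 after quantile normalization and -0.0079 with DESeq2.

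The width of the intervals sets what these samples could show. The 95% interval of a log2 fold change extended on median 3.31 to either side for loci with a mean of 10 to 20, 0.56 for loci with a mean of at least 200 and 0.41 for those with a mean of at least 1000. Among the 5847 loci with a mean of at least 200, 66 were higher and 75 lower at an unadjusted p under 0.05.

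**Figure D2:**
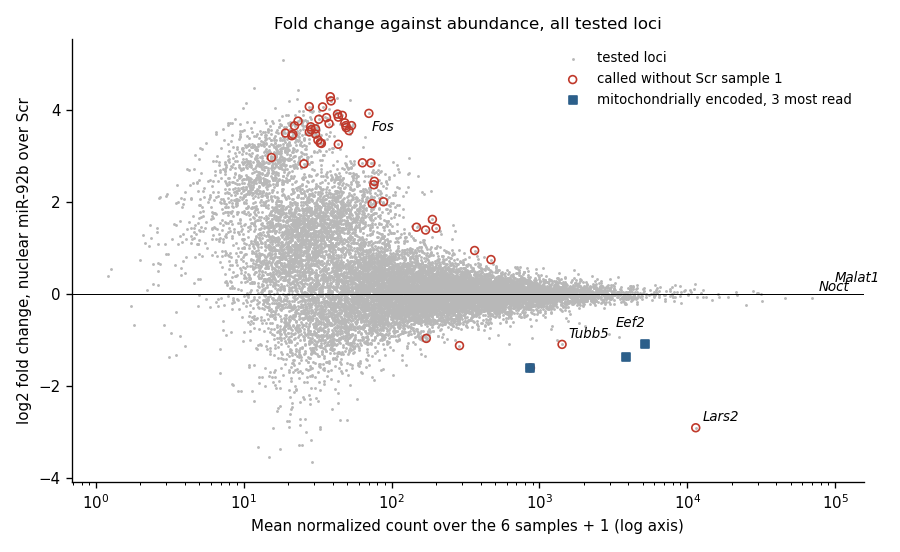
Fold change (log2) of the *miR-92b* over the Scr pulldown (vertical axis) against the mean normalized count over the 6 samples plus 1 (horizontal, log axis) for the 15579 tested loci in grey. Open circles are the 49 loci that limma called when Scr sample 1 was left out, and squares are the 3 most read mitochondrially encoded loci. Loci with low counts lay mostly above 0, and the circled loci below 0 include Lars2 and Tubb5.

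Nuclear long noncoding RNAs were measured with many reads and overlapped between the groups. Malat1 (chr19:5794051-5802737), an RNA of nuclear speckles, had 103245, 89319 and 86148 normalized counts with *miR-92b* against 91317, 84335 and 79997 with Scr, so the groups overlapped. Its log2 fold change was 0.12 ± 0.28 (SE, n = 3 against 3), with a 95% interval from -0.45 to 0.70. Here and below, each SE and interval uses a spread per locus estimated from all 18 samples, the whole cell ones included. Neat1, the scaffold of paraspeckles, had 36168, 27029 and 28042 with *miR-92b* against 32299, 30012 and 27265 with Scr. Xist, which coats the inactive X chromosome, had 35116, 28820 and 30336 with *miR-92b* against 34962, 30937 and 28743 with Scr. Both overlapped between the groups, with log2 fold changes of 0.02 ± 0.25 and -0.01 ± 0.27.

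Over the 12 tested members of the list of nuclear long noncoding RNAs the median log2 fold change was 0.02, 8 were above 0, and 0 were called or reached an unadjusted p under 0.05. In 1 of them, the locus that joins Meg3 with 3 other genes, the groups did not overlap (54.6, 69.7 and 56.6 with *miR-92b* against 27.4, 46.0 and 49.2 with Scr). That is 8.33% of the list, beside 6.28% of all tested loci. The other loci with the most reads in the 6 samples included Noct, a gene of the circadian system. The rest were Slc38a6, D10Wsu102e, Gm42860, RP23-356D13.9, the locus that joins Lncpint with Mir29a and Mir29b-1, and the locus that joins Gm22196, Gm43478 and Gm8802. At each of these 7, Noct included, the groups overlapped, and the log2 fold changes ran from -0.23 ± 0.24 (RP23-356D13.9) to 0.05 ± 0.29 (Gm22196). Noct had 59801, 68453 and 73394 with *miR-92b* against 54126, 84845 and 77970 with Scr.

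Transcripts linked to the nucleolus gave medians near 0. Small nucleolar RNAs (snoRNAs) guide the chemical modification of ribosomal and spliceosomal RNA and are mostly cut from the introns of other genes. In these files 64 of the 67 tested snoRNA loci joined a snoRNA with its host or a neighbour, so their values are mostly those of the host transcript. Their median log2 fold change was -0.05, with 26 above 0, 0 called, 0 higher and 3 lower at an unadjusted p under 0.05 (60.3% of all tested loci were above 0, and 0.674% were lower). Against Scr sample 1 alone the median was 0.14 with 48 above 0, and without Scr sample 1 it was -0.13. The 3 were the loci of Rps2 with Snora64, of Rpl23a with Snord42b and of Hspa8 with Snord14c to Snord14e, whose hosts encode 2 ribosomal proteins and a chaperone, and all 3 had their highest values in Scr samples 2 and 3. The 23 tested long noncoding host genes had a median of 0.01, and the 25 tested genes of nucleolar and snoRNP proteins also had a median of 0.01, with 0 members of either list at an unadjusted p under 0.05. Npm1, which encodes nucleophosmin, had 1610, 1690 and 1417 with *miR-92b* against 1272, 2007 and 2275 with Scr, and Ncl, which encodes nucleolin and hosts Snora75, had 2013, 2152 and 1818 against 1747, 2189 and 1675. Neither separated the groups.

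Transcripts of the miR-92 target list gave a median near 0. Of its 30 genes, 27 were tested, at 28 loci, and Cdkn1c, Eomes and Klf2 were not, with at most 8.42 normalized counts in any of the 6 samples. The median log2 fold change was -0.05, 12 loci were above 0 (60.3% of all tested loci were), and 0 were called or reached an unadjusted p under 0.05. The groups did not overlap at 3 of the 28, with Reck higher and Fbxw7 and the Cpeb2 locus lower, which is 3.57% higher and 7.14% lower against 6.28% and 3.81% of all loci.

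Fnip1, with 2 sites, had 4334, 3787 and 3911 normalized counts with *miR-92b* against 4432, 4213 and 3984 with Scr, and a log2 fold change of -0.07 with a 95% interval from -0.39 to 0.25. The Cpeb2 locus had 4543, 4649 and 4526 against 4651, 4678 and 4793, and a log2 fold change of -0.04 with an interval from -0.36 to 0.28. For these transcripts a rise of 1 log2 unit lay outside the interval. The intervals of 17 of the 28 loci stayed within 1 log2 unit of 0 on both sides, and 0 of the 28 excluded 0.

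Bcl2l11 had 105, 103 and 112 with *miR-92b* against 114, 49.5 and 68.1 with Scr, so that 1 Scr value lay above all 3 *miR-92b* values. Its log2 fold change was 0.55 with an interval from -0.58 to 1.67. Fbxw7 had 266, 309 and 299.6 with *miR-92b* against 311, 341 and 310.2 with Scr, and Reck, an inhibitor of metalloproteinases, had 69.7, 63.0 and 73.3 against 48.8, 61.0 and 12.6. The log2 fold changes of Fbxw7 and Reck were -0.14 ± 0.33 and 1.0 ± 0.94.

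**Figure D3:**
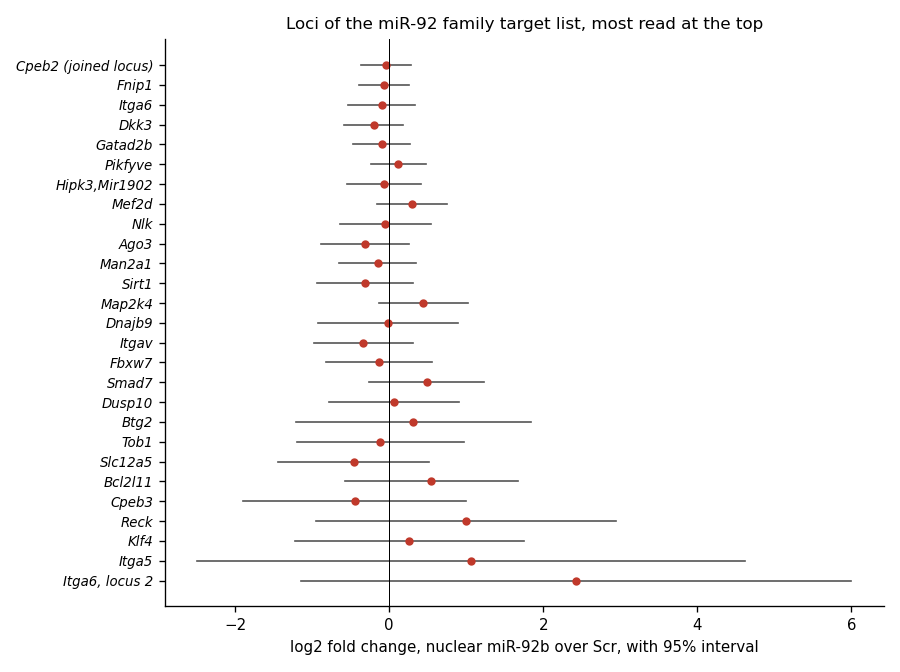
Fold change (log2) of the *miR-92b* over the Scr pulldown with its 95% interval for 27 of the 28 tested loci of the miR-92 target list, most read at the top. Every interval crosses 0, and the intervals widen towards the bottom, where counts are lower.

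The same question was asked of all loci with a seed match, without a list. Of 10533 tested loci that hold a single gene with an annotated 3′ UTR, 294 held an 8mer for *miR-92b-3p*, 535 a 7mer-m8 (GTGCAAT), 712 a 7mer-A1 (TGCAATA) and 8992 none of these. A locus was counted once, under its longest match. Their median log2 fold changes were 0.04, 0.02, 0.04 and 0.09. The groups did not overlap at 6.80% (higher) and 4.08% (lower) of the loci with an 8mer and at 5.99% and 4.14% of the loci without a match. limma called 0 of the 10533. Matches are more frequent in long 3′ UTRs, with a median of 2560 bases for the loci with an 8mer and 1076 for those without a match, and the former also had more counts (median 309 against 125). Restricted to a mean of at least 200 normalized counts, the medians were -0.0091 over 184 loci with an 8mer and -0.0020 over 3709 loci without a match. For the seed of *miR-92b-5p* (8mer CCGTCCCA), 104 loci held an 8mer with a median of 0.08, and 9931 held no match with a median of 0.08.

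Genes of the miRNA machinery and of nuclear RNA processing gave medians near 0 as well. The 22 tested Argonaute, TNRC6 and deadenylase genes had a median log2 fold change of 0.01, and the Ago2 locus, which joins Ptk2, had 3532, 3420 and 3477 with *miR-92b* against 3701, 3385 and 3549 with Scr. The 24 tested splicing factors and genes with detained introns had a median of 0.04. Son, a protein of nuclear speckles, had 6657, 5933 and 6322 against 7118, 6245 and 6451. The 21 tested Polycomb genes, which encode repressors of developmental genes, had a median of 0.04, and Cbx7 had 979, 1103 and 1015 against 1004, 1174 and 695. In these 3 lists 0 members were called or reached an unadjusted p under 0.05.

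The lists of mitochondrially encoded genes, cytosolic ribosomal proteins and elongation factors gave negative medians. Their summed levels were higher in Scr samples 2 and 3 than in the other nuclear samples. The mitochondrial genome encodes subunits of the respiratory chain, 2 ribosomal RNAs and tRNAs, and its transcripts do not leave the organelle. The summed level of its 4 tested loci was 2764, 4679 and 6457 with *miR-92b* against 2939, 14097 and 28666 with Scr, and 1508, 2678 and 6308 in the control samples. Scr sample 1 lay within the *miR-92b* range, and Scr samples 2 and 3 lay above all the other nuclear samples. The 4 log2 fold changes ran from -1.08 to -1.80 with a median of -1.49, and 0 were called. At an unadjusted p under 0.05, where 0.674% of all tested loci were lower, there were 2. These were the locus of mt-Cytb with mt-Tt (-1.61 ± 0.59) and the locus that joins mt-Co1, mt-Nd4, mt-Atp6 and others (-1.36 ± 0.54). Against Scr sample 1 alone, the median was 0.49 and all 4 were above 0.

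The 83 tested loci of cytosolic ribosomal proteins showed the same order of Scr samples. Their summed level was 31523, 33128 and 35001 with *miR-92b* against 28411, 47452 and 56124 with Scr. The median log2 fold change was -0.30, with 15 of 83 above 0, 0 called, 2 higher (Rps21 and the Rpl24 locus) and 4 lower (among them the loci of Rps2, Rpl23a and Rpl35) at an unadjusted p under 0.05, beside 3.74% higher and 0.674% lower of all loci. The groups did not overlap at 6 higher loci (7.23%) and 2 lower ones (2.41%). Against Scr sample 1 alone the median was 0.23 with 68 of 83 above 0, and without Scr sample 1 it was -0.67 with 10 above 0. The direction of the list thus turned with the Scr library used.

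Elongation factors, glycolytic enzymes and the cytoskeleton gave negative medians too. The 15 tested elongation factor genes had a median of -0.38, with 4 above 0. Eef2 and the Eef1a1 locus were lower at an unadjusted p under 0.05, beside 0.674% of all tested loci. Eef2 (chr10:81176630-81182507) had 1713, 2107 and 2163.1 with *miR-92b* against 2163.4, 4285 and 5208 with Scr, and a log2 fold change of -0.88 ± 0.35. Against Scr sample 1 alone the list's median was -0.05. The 17 tested glycolytic and cytoskeletal genes had a median of -0.47, with 3 above 0, and the groups did not overlap at 3 of them (17.6% lower, against 3.81% of all loci). Those 3 were Tubb5, a beta-tubulin, Cfl1, which severs actin filaments, and Ldha, lactate dehydrogenase. Actb was the fourth lower at an unadjusted p under 0.05, beside 0.674% of all tested loci.

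Tubb5 (chr17:35833920-35838306) had 751, 822 and 949 with *miR-92b* against 955, 1925 and 3139 with Scr, Cfl1 had 156, 129.97 and 152 against 195, 283 and 395, and Ldha had 1154, 782 and 871 against 1354, 1723 and 1424. The lowest Scr value was in sample 1 for all 3 genes. Against Scr sample 1 alone the median of the list was -0.19 with 2 of 17 above 0, so its sign was kept. The summed level of the list was 35389, 27162 and 27593 with *miR-92b* against 34703, 33237 and 35542 with Scr, so the groups overlapped. The sums of the mitochondrially encoded, ribosomal protein and elongation factor lists were highest in Scr samples 2 and 3 among the nuclear libraries, and their part in the medians was not tested.

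**Figure D4:**
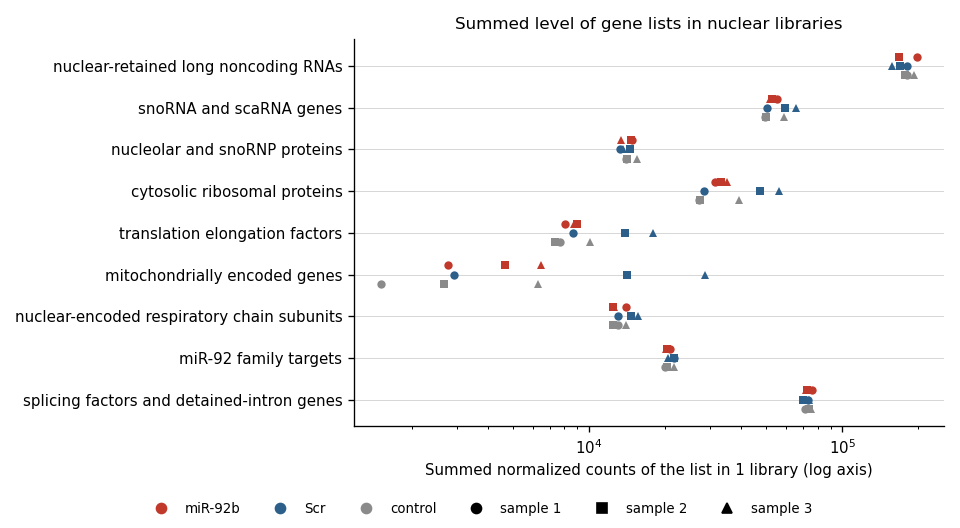
Summed normalized counts of 9 gene lists in each nuclear library (log axis), with 1 point per library, colours for groups and shapes for sample numbers. Mitochondrially encoded genes, ribosomal proteins and elongation factors were highest in Scr samples 2 and 3, while nuclear long noncoding RNAs, splicing factors and miR-92 targets varied little.

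The remaining lists gave 0 calls. The 78 tested nuclear-encoded subunits of the respiratory chain had a median log2 fold change of -0.06. At an unadjusted p under 0.05, 5 were higher (Sdhc, Ndufa11, Ndufa2, Ndufs8 and Uqcrh) and 2 lower (Ndufc2 and Atp5a1), beside 3.74% higher and 0.674% lower of all tested loci. All 5 higher loci were at 0 in Scr sample 2 or 3. The 55 replication-dependent histone loci, whose transcripts mostly lack a poly(A) tail, had a median of 0.02 that was -0.17 with DESeq2, 0.42 against Scr sample 1 alone (45 above 0) and -0.23 without that sample. The 20 immediate early and short-lived transcripts had a median of 0.28, and the 10 interferon response genes one of 0.08. In the interferon list Ddx58 was higher (13.7, 13.1 and 33.4 with *miR-92b* against 4.57, 0 and 0 with Scr). Usp18 was lower (1.37, 0 and 3.86 with *miR-92b* against 3.05, 107 and 51.7 with Scr). Both reached an unadjusted p under 0.05 by limma, beside 3.74% higher and 0.674% lower of all tested loci. The 18 chaperone genes had a median of 0.03. Hsp90ab1 (1821, 1451 and 1280 with *miR-92b* against 1609, 2960 and 3050 with Scr) and the Hspa8 locus were lower at an unadjusted p under 0.05, beside 0.674% of all tested loci. The 15 sympathetic neuroblastoma markers and the 4 markers of other cell types had medians of -0.11 and 0.54.

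The loci with the largest fold changes were described by the same values. At 83 loci with a mean of at least 50 over the 6 samples the *miR-92b* values were all higher at an unadjusted p under 0.05, and at 60 they were all lower. The largest differences upwards were at Gm45292, Fos, Tcam1, Fancc, Gm11734, Gm26722, B3gntl1, Xylt2, 9130011E15Rik and 1 gene model known only by a clone name, with log2 fold changes from 2.56 to 3.48. In each of these 10, Scr sample 2 or 3 was below 2 normalized counts. Fos (chr12:85473889-85477300), an immediate early transcription factor, had 112, 104 and 100.3 with *miR-92b* against 15.2, 0 and 60.5 with Scr, and 73.7, 59.2 and 38.0 in the control samples, with a log2 fold change of 3.41 ± 1.13. Fancc, a subunit of the Fanconi anaemia complex, had 61.5, 80.8 and 112 against 45.7, 28.8 and 0. B3gntl1 had 104, 131 and 126 against 97.5, 76.0 and 0.

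The largest differences downwards were at Jkamp, B2m, Smad3, Ints9, the locus of Fam109b with Smdt1, Alg1, Rps3a2, Ndufc2, Spc24 and Tbrg1, with log2 fold changes from -1.73 to -1.19. Jkamp, a membrane protein of the endoplasmic reticulum, had 23.2, 21.9 and 27.0 with *miR-92b* against 30.5, 143 and 125 with Scr, and 21.7, 40.3 and 58.5 in the control samples. B2m, the light chain of MHC class I, had 24.6, 23.2 and 32.2 against 50.3, 106 and 129, and Smad3, which transmits TGF-beta signals, had 54.6, 59.3 and 61.7 against 91.4, 274 and 206. In all 10 the lowest Scr value was that of sample 1. Rps3a2 shares its sequence with other copies of Rps3a, so reads may have been split between them.

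**Figure D5:**
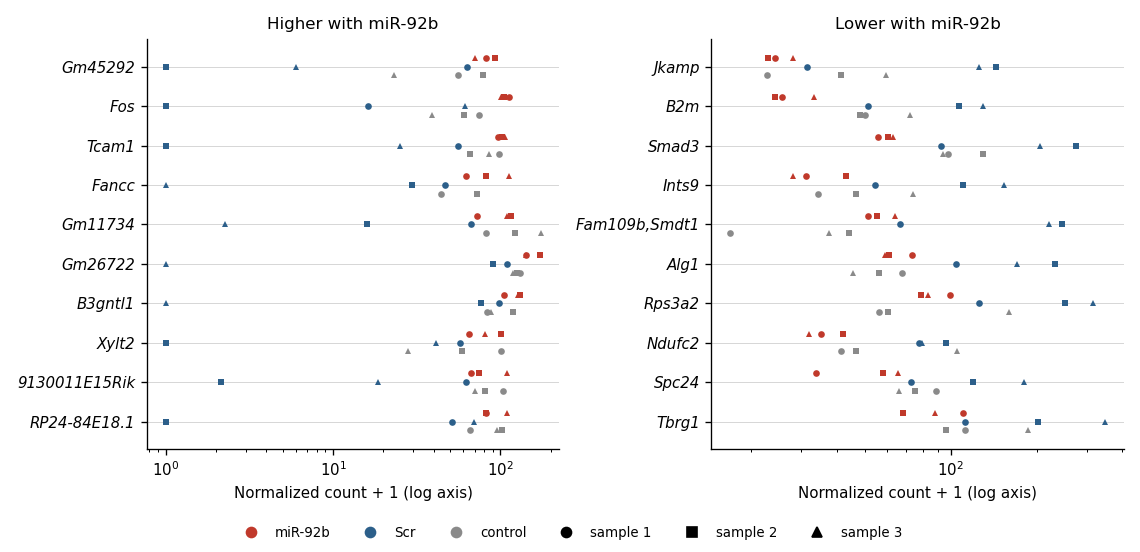
Normalized counts plus 1 (log axis) of the 10 loci with the largest fold change in each direction, with 1 point per nuclear library, colours for groups and shapes for sample numbers. At the left, Scr sample 2 or 3 lies near the left edge, and at the right Scr samples 2 and 3 lie above sample 1 at every locus.

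Scr sample 1 was the library on which the count of calls rested. Without it limma called 49 loci, 44 higher (0.282%) and 5 lower (0.0321%), and without any other single sample of the 2 groups it called 0. edgeR then called 19 higher and 5 lower, 22 of the limma calls among them, and DESeq2 306 higher and 37 lower, all 49 among them. Against Scr sample 1 alone, limma called 0 loci, with 42 at an unadjusted p under 0.05, and the median over all loci was 0.00066.

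Scr samples 2 and 3 were both below 2 normalized counts at 31 of the 44 loci called higher. Scr sample 1 itself lay above the lowest *miR-92b* value at 26 of the 44, and control samples 1 and 2 were above 0 at all 44. Abcc3, an organic anion transporter, had 77.9, 52.5 and 61.7 with *miR-92b* against 80.7, 0 and 0 with Scr, and 56.3, 78.0 and 160 in the control samples. Necap1, an endocytosis factor, had 247, 258 and 238 against 303, 48.3 and 34.1, with 261.4, 274 and 261.0 in the control samples. Hes6, a neurogenic transcriptional regulator, had 54.6, 33.3 and 38.6 against 38.1, 0 and 0. At these 3 loci Scr sample 1 lay within the *miR-92b* values or above them.

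Lars2 (chr9:123366926-123462666), which encodes the mitochondrial leucyl-tRNA synthetase, was lower with *miR-92b* in DESeq2 and without Scr sample 1. It had 1341, 719.6 and 1336 normalized counts with *miR-92b* against 1147, 55278 and 8729 with Scr, and 988, 1556 and 6819 in the control samples. Scr sample 1 lay within the *miR-92b* range and Scr sample 2 held most of the group's sum. The log2 fold change was -2.91 ± 0.81 (adjusted p = 0.999964 by limma), -4.33 without Scr sample 1 (adjusted p = 0.0029 by limma) and -4.29 in DESeq2 (adjusted p = 0.039). In whole cell lysate it had 4028, 6634 and 2800 with *miR-92b* against 9977, 3778 and 3688 with Scr. Lars2 has sequence similarity to mitochondrial ribosomal RNA, and whether the reads of its locus came from its mRNA was not tested. The other 4 loci called lower without Scr sample 1 were Tubb5 (-1.55, adjusted p = 0.049 by limma), the locus of mt-Cytb with mt-Tt (-2.61), the locus of Rpl23a with Snord42b (-1.94) and Rpl35 (-1.67).

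The nuclear effect was then set against the effect in whole cell lysate, in the same model. The 2 effects differed at 1 locus (0.00642% of those tested), which joins Pcmtd1, a homologue of protein repair methyltransferases, with Gm38372 (chr1:7088919-7173628), and 1123 loci (7.21%) reached an unadjusted p under 0.05. In the nucleus the locus had 659.7, 584 and 688 normalized counts with *miR-92b* against 772, 617 and 777 with Scr, so the groups overlapped, with a log2 fold change of -0.16 ± 0.28. In whole cell lysate it had 2188, 4905 and 1610 with *miR-92b* against 548, 427 and 629 with Scr, with no overlap and a log2 fold change of 2.29 ± 0.28. The difference of nuclear minus whole cell was -2.45 ± 0.40 (adjusted p = 0.038 by limma). With each of the 12 samples left out in turn the difference ran from -2.79 to -1.99 and was called in 4 cases. The call was lost without any of nuclear *miR-92b* samples 1, 2 and 3, nuclear Scr samples 2 and 3, whole cell *miR-92b* sample 1 and whole cell Scr samples 1 and 2 (highest adjusted p = 0.21 by limma).

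Across all tested loci the nuclear and whole cell log2 fold changes had a Pearson r of -0.029 and the same sign at 47.5%, and across the 5847 loci with a mean of at least 200 the r was -0.11 with the same sign at 45.9%. Loci are not independent replicates and share the libraries they were measured in, so these are descriptions. The lists of cytosolic ribosomal proteins, elongation factors and glycolytic and cytoskeletal genes had medians of 0.36, 0.33 and 0.37 in whole cell lysate, against -0.30, -0.38 and -0.47 in the nucleus, and limma called 0 of their members for the difference between compartments. The whole cell medians rested on *miR-92b* sample 3, without which they were -0.17, 0.0036 and -0.081. The summed level of the ribosomal proteins in whole cell lysate was 139821, 105515 and 403238 with *miR-92b* against 128578, 122403 and 179663 with Scr.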

How the data were processed

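Normalized counts and FPKM of the 18 samples (6 groups of 3) were analysed, with groups taken from the sample titles. Per the submitters' processing notes, the authors used bcl2fastq 2.17, Trimmomatic 0.30, TopHat2 and Cufflinks on GRCm38 (mm10). For the last 2, versions are not given here. The deposited normalized counts are a signal, fragments per locus divided by 1 size factor per sample, and the deposited FPKM values are also divided by transcript length and depth. Every one of the 635205 values above 0 came out as a whole number of reads (100% within 0.02 reads), so reads were recovered for edgeR, DESeq2 and depth. The authors' Cuffdiff tables hold fold changes and p-values and were not used. Of the tested loci, 1197 join more than 1 symbol.

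The test was limma 3.58.1 (two-sided, trend option) on log2 values after adding a pseudocount of 1, fitted to all 6 groups together, with Benjamini-Hochberg adjustment at 0.05. Loci with a mean of at least 10 over 18 samples entered. edgeR 4.0.16 (quasi-likelihood), DESeq2 1.42.0, pseudocounts of 0.5 and 8, other filters and scalings, FPKM, sample weights, a block for the sample number and each sample left out in turn were alternatives. Exact tests of 3 against 3 cannot go below 0.1 and were not used. Named loci were up to 10 per direction with the largest fold change among those with groups that do not overlap, an unadjusted p under 0.05 and a mean of at least 50 over the 6 samples, the 10 with the most reads, the 3 most read members of each of 19 lists, and Lars2, Eef2, Gapdh, Malat1, Neat1 and Miat. A few genes that the rule or the lists hold are left unnamed here. Other loci were named after their values were seen. Seed matches came from the longest 3′ UTR of each gene in GENCODE M21. The comparison, lists and rules were chosen with earlier results of these data known. The test was checked on simulated counts. Intervals are at the 95% level.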

Additional observations from a re-analysis of the deposited data

Results flagged for a closer look

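The difference between the nuclear and the whole cell effect of *miR-92b* over Scr passed the test at 1 locus, which joins Gm38372 and Pcmtd1. The difference (nuclear minus whole cell log2 fold change) was -2.45 ± 0.40, with adjusted p = 0.038 by limma. The whole cell values carried it, with 2188, 4905 and 1610 normalized counts with *miR-92b* against 548, 427 and 629 with Scr, while the nuclear groups overlapped. The locus joins 2 genes, and which of them the reads belong to was not tested.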

How the results depend on the processing

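limma called 0 loci in nuclear *miR-92b* against Scr. It also called 0 with a pseudocount of 0.5 or of 8, with filters at a mean of 1 or 50, with the filter over the 6 samples only, median rescaling, quantile normalization, the 2 groups or the 9 nuclear samples alone, sample weights and the replicate block, and edgeR called 0. It called 5 without a filter (Gm11196, Gm11737, Miox, Gm13630 and AB124611, all higher) and 1 in the FPKM table (2010107E04Rik, higher), and DESeq2 called 1 (Lars2, lower). Leaving out 1 sample gave 0 to 49 calls, with 49 without Scr sample 1. Alternatives chosen after seeing the data gave 0 with Scr sample 1 alone, 101 in the nuclear samples without Scr sample 1, and, also without it, 24 with edgeR and 343 with DESeq2. The number of loci whose nuclear and whole cell effects differed was 1, and 0 with a pseudocount of 0.5, a mean of at least 50, no filter or median rescaling, 2 in the FPKM table (Pcmtd1 and 2010107E04Rik), 40 with DESeq2, and 0 to 5 with 1 sample left out. Without Scr sample 1 it was 6 with edgeR and 326 with DESeq2. The cause of these changes was not tested.

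The labels number samples 1 to 3 in each group and do not say what the numbers mark. The deviations of same-numbered *miR-92b* and Scr samples correlated at 0.033, 0.010 and 0.015, and the main model left the numbers out. Such a correlation over many loci cannot exclude a pairing that shows in only some of them. Mitochondrially encoded sums rose from sample 1 to 3 with *miR-92b* (2764, 4679 and 6457), Scr (2939, 14097 and 28666) and control (1508, 2678 and 6308). Elongation factor sums did not rise so with *miR-92b* (8005, 8998 and 8731). Whether the numbers pair the samples was not settled. The replicate block gave 0 calls for the nuclear comparison and 0 for the difference between compartments. In a model of the 2 groups alone, added later, the block gave 7, all lower (adjusted p from 0.00020 to 0.034 by limma). They were the locus that joins mt-Co1, mt-Nd4, mt-Atp6 and others, the locus of mt-Cytb with mt-Tt, and Eef2. The rest were Tubb5, Lars2, the locus of Rps2 with Snora64 and the Eef1a1 locus.

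For 85 named loci, 2024 of 2207 alternative values lay within 1 SE, 157 moved further, 26 passed the threshold and 0 changed sign while called. Of 530 list and seed medians, 470 moved by less than the spread and 70 changed sign. Loci with few reads had wide intervals: from a mean of 100 to 200 the 95% interval extended on median 1.04 log2 units to either side.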
